A study of Mus musculus with 4 samples.

Results

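Il4, Il5, Il13, Il9, Il3 and Csf2 encode the type 2 cytokines interleukin (IL)-4, IL-5, IL-13 and IL-9, the haematopoietic growth factor IL-3 and the granulocyte-macrophage colony-stimulating factor GM-CSF. A probe set was taken where the platform annotation gave 1 of these genes as its only symbol. This gave 6 probe sets, 1 a gene, of 22690 in the table, or 6 of 12393 named genes. Their signals were compared between bone marrow dendritic cells (DC) after modulation by natural killer T cells (NKT-modulated, 2 arrays) and immature bone marrow DC (2 arrays). All 4 samples were of the mouse strain C57BL/6. Per the design text, RNA was taken from CD11c cells, named for an integrin chain of DC that Itgax encodes. The sources used here do not give the age of the mice, how NKT cells were added and removed, or whether the arrays came from separate cultures. A p-value thus covers the spread among the 4 arrays alone, and that spread may be technical.

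DC are antigen-presenting cells. NKT cells are T cells that recognise lipids on CD1d and release several classes of cytokine soon after activation. IL-4 and IL-13 share the receptor chain IL-4Rα and signal through STAT6. IL-3, IL-5 and GM-CSF share a common β chain and signal through JAK2 and STAT5, and IL-9 uses the common γ chain with IL-4. The best known sources of IL-4, IL-5, IL-13 and IL-9 are type 2 T cells, group 2 innate lymphoid cells, mast cells and basophils. In the mouse genome Il4, Il13, Il5, Csf2 and Il3 lie in a cluster on chromosome 11, and Il9 lies on chromosome 13.

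All 6 cytokine genes were higher in NKT-modulated DC than in immature DC. Il5, Il13 and Csf2 had the largest changes on the log2 scale, at 8.94, 8.36 and 8.12, followed by Il4 at 7.22, Il3 at 6.69 and Il9 at 3.26. Each passed limma's test at an adjusted p under 0.05, against 5.36% of all 22626 probe sets tested that were called higher and 5.7% called lower. The share of calls that were higher was 48.5%, 36.6% without further normalization of the arrays and 56.2% with cyclic loess, so the more frequent direction turned with the scaling. In each of the 6 genes both NKT-modulated arrays lay above both immature arrays, which held for 17.9% of all probe sets, while in 35.6% both lay below. Changes are differences of quantile normalized log2(signal + 16), NKT-modulated minus immature, and understate the change of dim genes. With all arrays 1212 probe sets were called higher and 1289 lower. Without NKT-modulated array 1 or 2, 624 and 694 were called higher and 446 and 625 lower, and without immature array 1 or 2, 811 and 822 were higher and 575 and 579 lower. The 6 cytokine genes kept their calls in each of these fits.

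**Figure D1:**
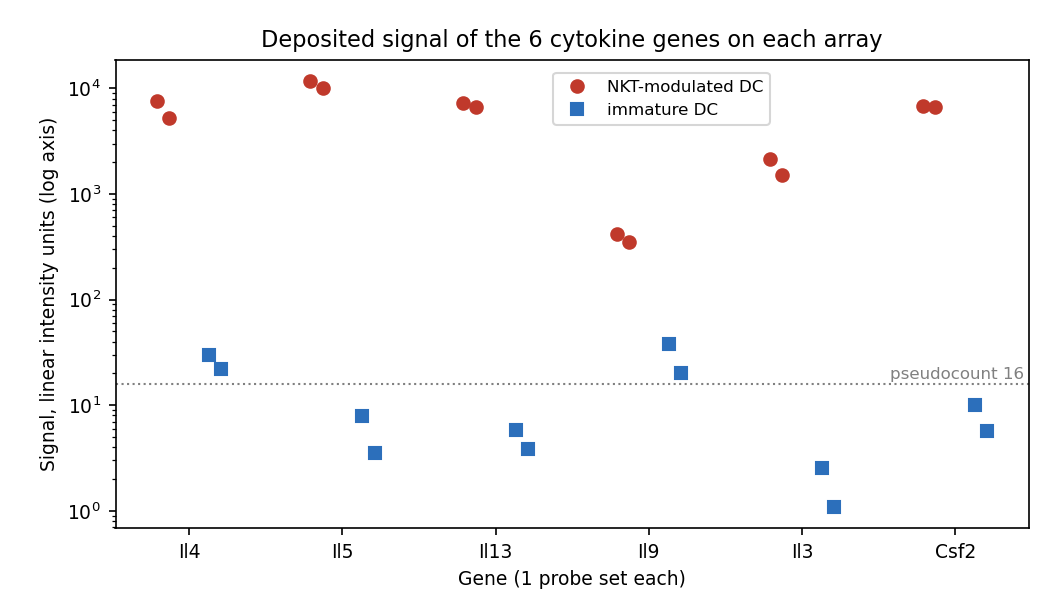
Deposited signal (linear intensity units, log axis) of the 6 cytokine genes on each array: red circles are the 2 NKT-modulated arrays, blue squares the 2 immature arrays, and the dotted line is the pseudocount of 16. The immature signals of Il5, Il13, Il3 and Csf2 lie below that line, and the NKT-modulated signals of Il9, 413.1 and 347.4, are the lowest of that group.

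Il4 encodes the cytokine that drives type 2 T cell differentiation and class switching to IgE. Its signal (probe set 1449864_at) was 7559 and 5281 in NKT-modulated DC, against 30.1 and 22.1 in immature DC. The immature signals were dim but stayed above the pseudocount, and the 2 NKT-modulated arrays differed by 1.43-fold, the widest such gap among the 6 genes. The log2 change was 7.22 ± 0.18 (SE, n = 2 arrays per group), with a 95% confidence interval of 6.79 to 7.65 and limma adjusted p = 2.34e-05.

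Il13 encodes the cytokine that acts on epithelium, smooth muscle and macrophages through a receptor shared with IL-4. Its signal (1420802_at) was 7253 and 6658 in NKT-modulated DC, against 5.78 and 3.85 in immature DC. The log2 change was 8.36 ± 0.13 (SE, n = 2 per group, interval 8.04 to 8.67, limma adjusted p = 7.26e-06). Both immature signals were under the lower quartile of their arrays, which was 28.8 and 27.4.

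Il5 encodes the growth and survival factor of eosinophils. Its signal (1450550_at) was 11667 and 10167 in NKT-modulated DC, against 7.83 and 3.54 in immature DC. The NKT-modulated arrays were close to each other, with a ratio of 1.15, and the groups were far apart. The log2 change was 8.94 ± 0.13 (SE, n = 2 per group, interval 8.61 to 9.27, limma adjusted p = 7.26e-06).

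Il9 encodes a growth factor of mast cells and T cells. Its signal (1450565_at) was 413.1 and 347.4 in NKT-modulated DC, against 38.2 and 19.97 in immature DC. It was the only cytokine gene of the 6 whose NKT-modulated signals did not exceed the upper quartile of their arrays, 633.7 and 620.6, although both exceeded the array medians. The log2 change was 3.26 ± 0.26 (SE, n = 2 per group, interval 2.61 to 3.90, limma adjusted p = 0.00123). It was called higher at the threshold of 0.05 but not at 0.001.

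Il3 encodes a growth factor of haematopoietic progenitors, mast cells and basophils. Its signal (1450566_at) was 2128 and 1496 in NKT-modulated DC, against 2.56 and 1.09 in immature DC, the dimmest immature values of the 6 genes. The NKT-modulated arrays differed by 1.42-fold, close to the gap seen for Il4. The log2 change was 6.69 ± 0.22 (SE, n = 2 per group, interval 6.15 to 7.23, limma adjusted p = 4.96e-05).

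Csf2 encodes GM-CSF, the factor with which DC are commonly grown from bone marrow. Its signal (1427429_at) was 6828 and 6652 in NKT-modulated DC, against 10.0 and 5.74 in immature DC. The 2 NKT-modulated arrays were the closest of the 6 genes, with a ratio of 1.03. The log2 change was 8.12 ± 0.14 (SE, n = 2 per group, interval 7.79 to 8.45, limma adjusted p = 8.26e-06). An exact permutation test of any 1 gene in 2 arrays against 2 cannot go below p = 0.333 (two-sided), so the tests rest on the variance that limma shares across probe sets.

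Arrays of the same group also differed in these genes. In raw signal all 6 were higher on NKT-modulated array 1 than on array 2, beside 57% of all probe sets, and all 6 were higher on immature array 1 than on array 2, beside 36.3%. After quantile normalization this held for 5 of the 6 in the NKT-modulated arrays, beside 48.5% of all probe sets, with Csf2 as the exception, and for 6 of the 6 in the immature arrays, beside 49%.

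The order of these changes held only in part. The 95% intervals of Il5 and Il13 overlapped, as did those of Il13 and Csf2 and those of Il4 and Il3, whereas the interval of Csf2 lay above that of Il4 and that of Il9 lay below the rest. The immature signals of Il5, Il13, Il3 and Csf2 were under the pseudocount, so the size of their change follows from how dim signals were treated. With a pseudocount of 1 the change of Il3 was 9.38 ± 0.37 and that of Il4 7.86 ± 0.20, so these genes exchanged places. With a pseudocount of 64 the same changes were 4.84 ± 0.18 and 6.13 ± 0.16. With every signal under the lower quartile of its array raised to that quartile, the log2 changes were 8.56 ± 0.04 for Il5, 7.92 ± 0.04 for Il13, 7.87 ± 0.04 for Csf2 and 6.01 ± 0.21 for Il3 (SE). Il4 was then at 7.75 ± 0.18, so Csf2 and Il4 were close under that floor. These are fitted values under that floor and not bounds. The floor replaces both immature signals of Il5, Il13, Csf2 and Il3, so the SE of these 4 genes leaves out the spread of the immature arrays. Il9 had the smallest change of the 6 under each of these treatments, from 2.34 to 3.82.

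**Figure D2:**
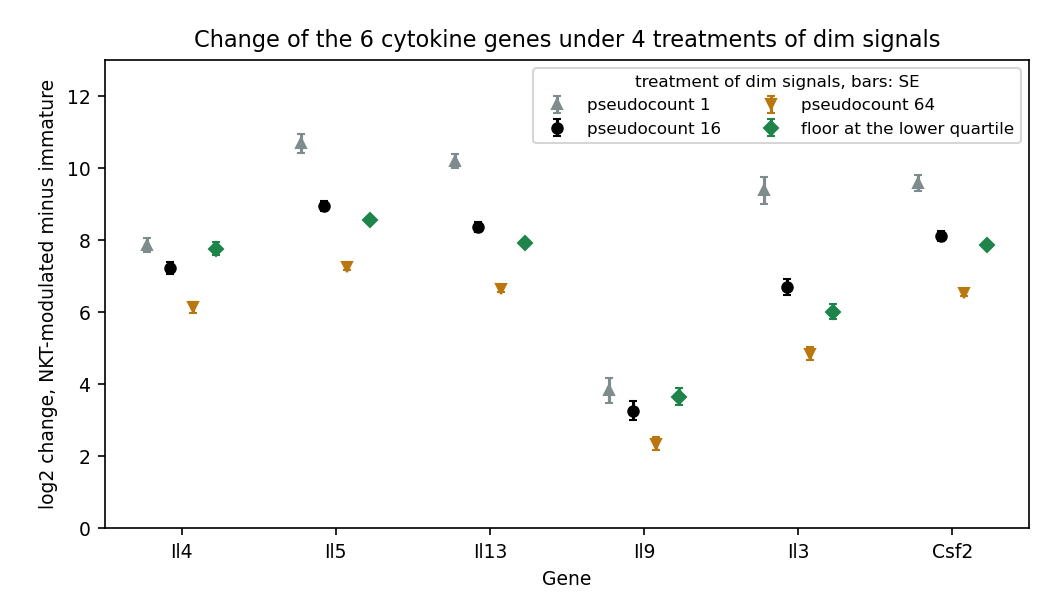
Log2 change (NKT-modulated minus immature, points with SE bars) of the 6 cytokine genes under pseudocounts of 1, 16 and 64 and with dim signals raised to the lower quartile of their array. Il5 is highest and Il9 lowest in all 4 treatments, and Il3 moves most, between 4.84 and 9.38. Under the floor the SE of Il5, Il13, Csf2 and Il3 leaves out the spread of the immature arrays.

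Most genes measured around the 5 cytokine genes on chromosome 11 were not called. Along the chromosome the measured genes of the cluster run from Aff4, Uqcrq, Gdf9, Shroom1, Septin8 and Kif3a through Il4, Il13, Rad50, Il5 and Irf1 to the Slc22a transporter genes, Pdlim4, P4ha2, Csf2, Il3 and Acsl6. Of these 14 neighbours, 2 were called higher and 0 lower, with a median log2 change of 0.02, beside -0.04 over all 12393 genes and 5.99% of them called higher and 6.88% lower. The neighbours called were Irf1 and Pdlim4. Rad50, a DNA repair gene that lies between Il13 and Il5 and holds regulatory elements of the type 2 cytokine genes, had signals of 391.1 and 398.8 in NKT-modulated DC, against 591.8 and 640.3 in immature DC. Its log2 change was -0.42 ± 0.11 (limma adjusted p = 0.0728), and a dimmer probe set of Rad50 gave 0.08 (adjusted p = 0.899). Without further normalization the brighter one gave -0.62 with limma adjusted p = 0.0384, the only lower call among the neighbours in any scaling. Irf1, an interferon-induced transcription factor next to Il5, had signals of 6973 and 6777 in NKT-modulated DC, against 1088 and 1035 in immature DC. The log2 change of Irf1 was 2.72 ± 0.10 (limma adjusted p = 9.17e-05), and that of Pdlim4, an actin-associated LIM domain gene, was 1.26 ± 0.10.

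**Figure D3:**
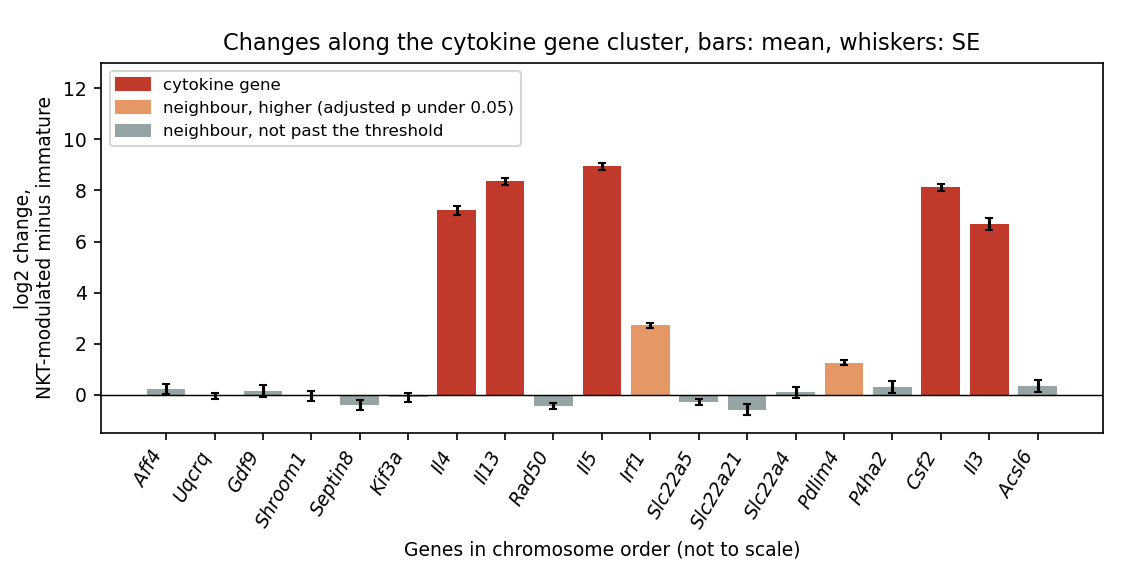
Log2 change (NKT-modulated minus immature, bars with SE whiskers) of 19 measured genes on chromosome 11 in chromosome order, not to scale. Il4, Il13, Il5, Csf2 and Il3 stand between 6.69 and 8.94, Irf1 and Pdlim4 at 2.72 and 1.26, and the other 12 neighbours between -0.59 and 0.34.

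The sequences before the start sites of Il4, Il13 and Il5, the adjoining type 2 genes, and of Il9, the gene on another chromosome with the smallest change, are shown because these genes were higher together. They are RefSeq sequences of GRCm38.p6, 250 bases before the start, 5′ to 3′ on the strand of the gene: Il4 at chr11:53618666-53618915 (minus strand), Il13 at chr11:53634703-53634952 (minus), Il5 at chr11:53720544-53720793 (plus) and Il9 at chr13:56482258-56482507 (minus). Capitals mark GGAAA, a core shared by binding sites of NFAT and ETS factors, and TGANTCA, the binding motif of AP-1, on either strand.
Il4: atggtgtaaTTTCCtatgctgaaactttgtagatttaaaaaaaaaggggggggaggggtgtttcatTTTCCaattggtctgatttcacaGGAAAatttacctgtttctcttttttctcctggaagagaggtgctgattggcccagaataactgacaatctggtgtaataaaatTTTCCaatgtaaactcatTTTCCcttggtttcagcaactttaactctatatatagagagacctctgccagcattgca
Il13: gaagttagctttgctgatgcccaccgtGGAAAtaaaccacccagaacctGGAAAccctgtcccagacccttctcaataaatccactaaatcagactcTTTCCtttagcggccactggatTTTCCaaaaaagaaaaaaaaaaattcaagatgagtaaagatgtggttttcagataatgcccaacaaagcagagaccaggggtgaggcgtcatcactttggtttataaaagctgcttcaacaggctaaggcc
Il5: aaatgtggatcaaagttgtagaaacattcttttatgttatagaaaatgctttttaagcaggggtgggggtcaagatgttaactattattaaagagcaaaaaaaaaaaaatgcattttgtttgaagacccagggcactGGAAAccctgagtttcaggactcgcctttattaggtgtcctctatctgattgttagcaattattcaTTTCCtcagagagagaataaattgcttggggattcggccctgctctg
Il9: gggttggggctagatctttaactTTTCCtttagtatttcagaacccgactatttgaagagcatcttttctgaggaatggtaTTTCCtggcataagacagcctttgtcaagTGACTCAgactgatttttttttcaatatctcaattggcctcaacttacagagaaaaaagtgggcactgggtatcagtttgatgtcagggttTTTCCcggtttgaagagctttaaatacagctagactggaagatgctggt

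GGAAA was found in the windows of 6 of the 6 cytokine genes, beside 55.6% of 32851 such windows in the table. It occurred 5 times before Il4, 4 times before Il13, 3 times before Il9, 2 times each before Il5 and Csf2 and 1 time before Il3. TGANTCA was found in 1 of the 6, the window of Il9, beside 6.75% of all windows, and no match overlapped a GGAAA. The core GATAA of GATA factors was found before Il13, Il3 and Csf2, 3 of the 6, beside 22.6% of all windows, and TATAAA before Il13, 1 of the 6, beside 12.4%. All matches were sought on both strands, and a match or its lack describes the letters of the window only. Il4 has a further annotated start, which was not used for these counts and whose window held 0 matches to GGAAA. The 32851 windows keep such further starts, so they were counted by a wider rule than the 6 cytokine genes.

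Transcription factors that act on these genes were higher in part. Of 18 regulators measured, 7 were called higher and 0 lower, beside 5.99% and 6.88% of all genes. Their median log2 change was 0.40, beside -0.04 over all genes. Gata3, which opens the Il4, Il5 and Il13 genes in type 2 T cells, had signals of 825.2 and 812.5 in NKT-modulated DC, against 16.5 and 18.2 in immature DC, a log2 change of 4.72 ± 0.19 (limma adjusted p = 1.03e-04). Ets1, a lymphocyte ETS factor, had signals of 1333 and 961.3 in NKT-modulated DC, against 29.1 and 76.3 in immature DC, a change of 4.25 ± 0.34. Tbx21, the T-bet gene of the type 1 programme, had signals of 282.9 and 202.9 in NKT-modulated DC, against 3.78 and 1.27 in immature DC, a change of 3.90 ± 0.27. In each of these genes both NKT-modulated arrays lay above both immature arrays, and the immature signals were dim. Over all probe sets both lay above in 17.9% and below in 35.6%. Gfi1, a repressor that favours growth of type 2 T cells, changed by 3.03 ± 0.20. Irf4, a factor of DC and lymphocytes, changed by 1.14 ± 0.08 at its brightest probe set, and by 0.39 with adjusted p = 0.389 at the other. Junb, an AP-1 subunit that binds the Il4 promoter, changed by 0.65 ± 0.09, with adjusted p = 0.0637 without NKT-modulated array 1.

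Among genes of the receptors, Csf2ra alone passed the test. Of 9 measured, 0 were called higher by limma and 1 lower, beside 5.99% and 6.88% of all genes, with a median log2 change of -0.08. Csf2ra, the GM-CSF binding chain, had signals of 2849 and 2943 in NKT-modulated DC, against 3890 and 4369 in immature DC, a log2 change of -0.50 ± 0.08 (interval -0.69 to -0.30, limma adjusted p = 0.0135). That call was lost without NKT-modulated array 1 or 2 or immature array 2 (limma adjusted p = 0.10, 0.0571 and 0.0543) and without the intensity trend (0.119), and a dimmer probe set of Csf2ra gave 0.20 (adjusted p = 0.593). Csf2rb, the β chain shared by the receptors of IL-3, IL-5 and GM-CSF, had signals of 3660 and 4327 in NKT-modulated DC, against 5025 and 5909 in immature DC. Its change was -0.48 ± 0.12 (interval -0.77 to -0.20, limma adjusted p = 0.0527), and -0.63 with adjusted p = 0.0496 without NKT-modulated array 2. Csf2rb2, the β chain of the mouse that serves IL-3 alone, changed by -0.08 ± 0.09 (interval -0.30 to 0.14).

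Il4ra, the chain common to the receptors of IL-4 and IL-13, had signals of 1052 and 1102 in NKT-modulated DC, against 833.2 and 1061 in immature DC. Its log2 change was 0.33 ± 0.11 (interval 0.07 to 0.58, limma adjusted p = 0.115). Dimmer probe sets of Il4ra gave -0.11 and 0.80 (limma adjusted p = 0.795 and 0.0576). Il13ra1, the partner of Il4ra for IL-13, had signals of 573.0 and 601.1 in NKT-modulated DC, against 758.1 and 913.6 in immature DC. Its change was -0.33 ± 0.11 (interval -0.59 to -0.08, limma adjusted p = 0.108). Dimmer probe sets of Il13ra1 gave 0.29, -0.04, -0.28 and -0.04 (limma adjusted p = 0.371 to 0.918). The other receptor genes were dim on all arrays: Il13ra2, a decoy receptor, lay between 40.3 and 71.2, Il3ra between 33.5 and 98.4, Il5ra between 19.5 and 67.1 and Il9r between 3.25 and 5.69. Their changes were 0.31 ± 0.28, -0.58 ± 0.33, 0.38 ± 0.46 and 0.09 ± 0.20, and the change of Il5ra was -0.30 without NKT-modulated array 2.

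Some genes that act after these receptors were higher, among them Stat5a and Stat3, and Ptpn6 was lower. Of 13 JAK-STAT and adaptor genes measured, 5 were called higher and 1 lower, beside 5.99% and 6.88% of all genes. Their median log2 change was 0.03. Stat5a, which acts after IL-3, IL-5 and GM-CSF, had signals of 2528 and 2012 in NKT-modulated DC, against 633.5 and 670.3 in immature DC, a change of 1.88 ± 0.12 (limma adjusted p = 5.47e-04). Stat3 changed by 1.01 ± 0.10 and Irs2, an adaptor of the IL-4 receptor, by 1.27 ± 0.19. Jak2 changed by 0.44 ± 0.07 and Stat5b by 0.58 ± 0.13. Ptpn6, the phosphatase SHP-1 that dampens these receptors, changed by -0.80 ± 0.08 (limma adjusted p = 0.00235), and by -0.41 (adjusted p = 0.289) at its other probe set. One of the 3 probe sets of Stat3 did not pass, with 0.83 (adjusted p = 0.0991). Stat6, the factor of IL-4 and IL-13, named after its values were seen, had a change of -0.18 ± 0.08 (interval -0.38 to 0.03, limma adjusted p = 0.256). Stat5b lost its call without any 1 of the 4 arrays (limma adjusted p = 0.0601 to 0.192), Jak2 without NKT-modulated array 1 or 2 or immature array 1 (0.115, 0.087 and 0.0568), and Irs2 without NKT-modulated array 1 or immature array 2 (0.0566 and 0.0539). The list had 2 higher calls without NKT-modulated array 1 and 3 without any 1 of the other arrays.

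Of the inhibitors of these receptors' signals, Socs1, Socs2, Socs3, Cish and Ptpn2 were called higher and Bcl6 lower. Of 8 measured, 5 were called higher and 1 lower, beside 5.99% and 6.88% of all genes. Their median log2 change was 0.51, and 2 were called higher without the intensity trend. Socs3 had signals of 8050 and 7009 in NKT-modulated DC, against 1955 and 2204 in immature DC, a change of 1.86 ± 0.08 (limma adjusted p = 1.20e-04). Socs1, which blocks JAK kinases after IL-4 and interferons, had signals of 408.1 and 496.0 in NKT-modulated DC, against 111.7 and 126.7 in immature DC, a change of 1.96 ± 0.18. In both genes the NKT-modulated arrays lay above the immature arrays, as in 17.9% of all probe sets. Socs2 and Cish, feedback genes of STAT5, changed by 0.78 ± 0.07 and 0.61 ± 0.08, and Ptpn2, a phosphatase of JAK1 and JAK3, by 0.42 ± 0.08, with 1 of its 4 probe sets not passing (1.19, limma adjusted p = 0.0604). Cish lost its call without NKT-modulated array 1 (limma adjusted p = 0.0678), and Ptpn2 without NKT-modulated array 1 or 2 or immature array 1 (0.133, 0.145 and 0.0963). Bcl6, a repressor that competes with STAT6 for DNA sites, changed by -1.28 ± 0.11 (limma adjusted p = 0.00132), with signals of 362.2 and 348.8 in NKT-modulated DC, against 948.0 and 1043 in immature DC. Its other probe set gave -0.51 (limma adjusted p = 0.293).

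**Figure D4:**
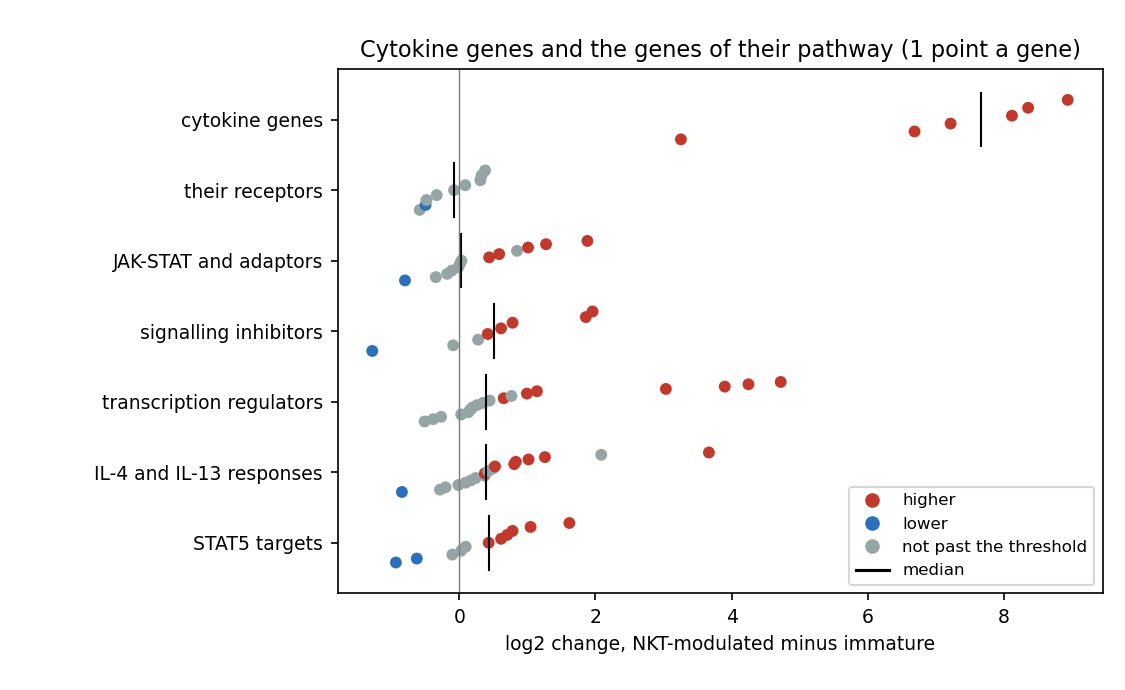
Log2 change (NKT-modulated minus immature) of the 6 cytokine genes and of the genes of 6 pathway lists, 1 point a gene: red points were called higher, blue points lower and grey points did not pass the threshold. Black lines are medians, which lie between -0.08 and 0.51 for the pathway lists, while the cytokine genes lie between 3.26 and 8.94.

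Genes known to respond to IL-4 and IL-13 in myeloid cells were higher in part. Of 18 measured, 7 were called higher and 1 lower, beside 5.99% and 6.88% of all genes. Their median log2 change was 0.40. The 10 not called were Arg1, Fcer2a, Retnla, Ccl17, Alox15, Mrc1, Chil3, Il4i1, Cdh1 and Mgl2, named after their values were seen. In that order their changes were 2.09, 0.49, 0.42, 0.37, 0.24, 0.17, 0.09, -0.02, -0.20 and -0.29 (limma adjusted p = 0.0631 to 0.987). Ccl24, an eosinophil attractant, had signals of 1985 and 1560 in NKT-modulated DC, against 129.1 and 142.1 in immature DC, a change of 3.67 ± 0.14 (limma adjusted p = 9.17e-05). Pdcd1lg2, the gene of PD-L2, and Tgm2, a transglutaminase, changed by 1.26 ± 0.10 and 1.02 ± 0.08. Ch25h, Egr2 and Il1rn, encoding a cholesterol hydroxylase, a transcription factor and the IL-1 receptor antagonist, changed by 0.83 ± 0.09, 0.81 ± 0.11 and 0.52 ± 0.08. A dimmer probe set of Tgm2 gave 1.28 and one of Il1rn 0.80, which did not pass (limma adjusted p = 0.0639 and 0.0699). Il1rn lost its call without NKT-modulated array 1 or 2 or immature array 2 (limma adjusted p = 0.0696, 0.0859 and 0.0505). The lower gene was Clec10a, a macrophage lectin named after its values were seen, with a change of -0.85 ± 0.15. Without NKT-modulated array 1, immature array 1 or immature array 2 it did not pass (limma adjusted p = 0.0693, 0.0922 and 0.068) and 0 genes were lower.

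Of 11 STAT5 target genes measured, 6 were called higher and 2 lower, beside 5.99% and 6.88% of all genes. Their median log2 change was 0.43. The higher genes include Socs2 and Cish, which are also counted among the inhibitors above. Il2ra, the α chain of the IL-2 receptor, which activated T cells and DC both make, had signals of 2470 and 1920 in NKT-modulated DC, against 805.5 and 700.2 in immature DC, a change of 1.62 ± 0.16 (limma adjusted p = 0.00267). Bcl2l1, a survival gene, changed by 1.05 ± 0.12 at its brightest probe set, and by 0.23, 0.86 and 0.15 at the other 3, which did not pass (limma adjusted p = 0.611, 0.0518 and 0.712). Ccnd2, a cyclin, changed by 0.70 ± 0.07. Ccnd3, another D cyclin, changed by -0.93 ± 0.12. Spred2, an inhibitor of ERK signalling named after its values were seen, changed by -0.63 ± 0.10, and by -0.29 (adjusted p = 0.756) at its other probe set. It lost its call without NKT-modulated array 1 or 2 or immature array 1 (limma adjusted p = 0.0858, 0.068 and 0.0696), which left 1 lower call. Among the alarmins IL-33, IL-25 and TSLP and their receptors, 5 genes were measured. Of these, 3 were called higher and 0 lower, beside 5.99% and 6.88% of all genes. These were Il17rb, Tslp and Il33, with changes of 1.41 ± 0.21, 1.09 ± 0.23 and 1.00 ± 0.22 and limma adjusted p = 0.0560 to 0.0627, 0.0548 to 0.133 and 0.0609 to 0.149 without 1 of the 4 arrays. Tslp was dim throughout, at 26.1 and 15.3 in NKT-modulated DC, against 0.85 and 1.16 in immature DC.

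Some T cell transcripts were higher in NKT-modulated DC as well. Of 14 T and NKT cell markers measured, 8 were called higher and 0 lower, beside 5.99% and 6.88% of all genes. Their median log2 change was 2.11. Their summed signal was 7262 and 5559 in NKT-modulated DC, against 1325 and 1384 in immature DC. No marker was listed at 0. Thy1 had signals of 1883 and 1309 in NKT-modulated DC, against 82.3 and 97.8 in immature DC, and Cd3e, a chain of the T cell receptor complex, had 394.6 and 199.8 in NKT-modulated DC, against 10.3 and 7.11 in immature DC. The changes of Cd3g, Thy1, Cd3d and Cd3e were 5.26 ± 0.20, 3.996 ± 0.19, 3.73 ± 0.28 and 3.70 ± 0.35, and those of Lat and Icos, a T cell adaptor and a costimulatory receptor, 2.40 ± 0.25 and 2.31 ± 0.13. The markers that did not pass were Cd4, Cd2, Zap70, Cd5, Cd6 and Cd8a, named after their values were seen, with changes of 0.90, 0.42, 0.26, 0.23, 0.23 and -0.31. A dimmer probe set of Zap70 gave 4.46 (limma adjusted p = 0.000406). At a threshold of 0.001, or with the floor on dim signals, 4 of the 14 were called higher. Over all 22626 probe sets the higher calls were then 197 and 472, in place of 1212. The part of these T cell transcripts in the cytokine signals was not tested. In RNA of a whole sample, more cells of a type and more RNA per cell cannot be told apart.

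Markers of mast cells, basophils and eosinophils, which make or answer type 2 cytokines, had few calls, as did all genes measured. Of 11 mast cell and basophil markers measured, 1 was called higher and 1 lower, beside 5.99% and 6.88% of all genes, with a median log2 change of 0.07, and their summed signal was 1080 and 933.1 in NKT-modulated DC, against 1038 and 1126 in immature DC. Fcer1a and Mcpt8 are named although they were not among the 6 smallest p of this list. Fcer1a, the α chain of the IgE receptor, had signals of 20.7 and 11.99 in NKT-modulated DC, against 15.7 and 19.1 in immature DC. Mcpt8, a basophil protease, had 13.2 and 49.4 in NKT-modulated DC, against 20.5 and 9.86 in immature DC. Cpa3, the mast cell carboxypeptidase, had 46.5 and 47.6 in NKT-modulated DC, against 34.8 and 29.4 in immature DC. The gene called higher was Hdc, the histamine-forming enzyme, which other myeloid cells also make, at 362.3 and 321.0 in NKT-modulated DC, against 19.6 and 22.4 in immature DC, a change of 3.38 ± 0.22 (limma adjusted p = 6.50e-04). The lower gene was Kit, with a change of -0.88 ± 0.18, and -0.46 (adjusted p = 0.347) at its other probe set. It lost its call without NKT-modulated array 2, immature array 1 or immature array 2 (limma adjusted p = 0.0783, 0.0989 and 0.112), which left 0 lower. Of 5 eosinophil markers 0 were called by limma, and their summed signal was 456.9 and 610.7 in NKT-modulated DC, against 770.9 and 975.8 in immature DC, most of it from Siglecf, at 418.9 and 561.6 in NKT-modulated DC, against 736.4 and 933.3 in immature DC. Prg2, the major basic protein gene, lay between 4.47 and 30.4 on all arrays.

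DC markers differed widely in signal within both groups. Of 12 DC markers measured, 2 were called higher and 1 lower, beside 5.99% and 6.88% of all genes. Their median log2 change was 0.04. Their summed signal was 76562 and 69603 in NKT-modulated DC, against 66823 and 61888 in immature DC. Most of the sum came from Cd74 and the MHC class II genes H2-Aa, H2-Ab1 and H2-Eb1, whereas Itgam, Flt3, a receptor of DC progenitors, and Zbtb46, a transcription factor of conventional DC, lay between 269.4 and 714.9 on all arrays. Cd74, these MHC genes and Zbtb46 are named although they were not among the 6 smallest p of this list. Itgax had signals of 5253 and 4643 in NKT-modulated DC, against 5442 and 5537 in immature DC, a change of -0.19 ± 0.08 (limma adjusted p = 0.204). The genes called higher were the maturation markers Cd83 and Cd86, with changes of 0.94 ± 0.08 and 0.85 ± 0.10. The gene called lower was Itgam, the integrin CD11b, with -0.71 ± 0.14, and it lost its call without any 1 of the 4 arrays (limma adjusted p = 0.0634 to 0.132), which left 0 lower.

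**Figure D5:**
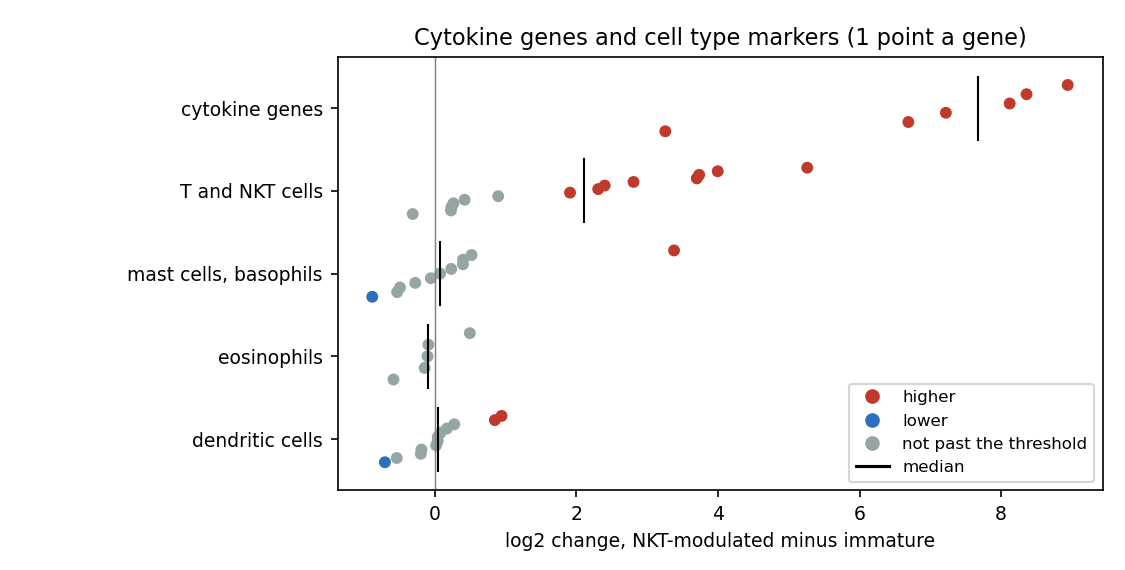
Log2 change (NKT-modulated minus immature) of the 6 cytokine genes and of markers of 4 cell classes, 1 point a gene: red points were called higher, blue points lower and grey points did not pass the threshold. Black lines are medians, 2.11 for T and NKT cell markers and between -0.10 and 0.07 for the other markers.

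The genes whose pattern over the 4 arrays was most like that of each cytokine gene were sought by the Euclidean distance between log2 values centred on their own mean. With only 4 arrays in 2 groups, this distance follows mainly the size of the change. Il13 and Csf2 were the closest pair of the 6, at 0.26, and Il5 lay nearest to Il13, at 0.59. The nearest genes outside the 6 were Cxcl9, an interferon-induced chemokine, and Ctla2a, a protease inhibitor, for Il5, Il13 and Csf2, at distances from 0.34 to 1.42. They were Ifng and Ctla2a for Il4, at 0.47 and 0.48, and Il17a and Ifng for Il3, at 0.30 and 0.44. Ifng and Il17a are cytokine genes of other T cell programmes, with changes of 6.999 ± 0.25 and 6.54 ± 0.20. Il9 stood apart from the other 5 genes, with Il3 nearest at 3.45, and was closest to Il24, a cytokine of the IL-10 family, at 0.28, and to Irgm2, an interferon-induced GTPase, at 0.31. Signals of Il24 were 534.8 and 355.6 in NKT-modulated DC, against 45.8 and 20.5 in immature DC.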

How the data were processed

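RNA of 4 mouse DC samples was measured on Affymetrix expression arrays. The deposited table holds linear intensity values, 1 per probe set and array. The authors analysed the images with GCOS, per the submitters' processing notes. The summary method and any scaling are not given in these sources, and no detection calls were used. The design text and the labels name different labelling kits, so the amplification is not settled, and the array named in the design text carries more probe sets than the 22690 of the table. Groups follow the source names, with 2 arrays each, and their number limits the precision.

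From these values, 64 control probe sets were left out and log2(signal + 16) was quantile normalized. NKT-modulated arrays were compared with immature arrays by limma 3.58.1 under R 4.3.3, with a linear model per probe set, a variance trend on intensity and two-sided tests. P-values were adjusted by the Benjamini-Hochberg method over 22626 probe sets and called under 0.05. The model fit and the adjustment were tested on simulated log2 values, with noise drawn from the variance fitted here. The pseudocount and the normalization were not part of that simulation. Probe sets were named through the platform annotation (20380 with 1 symbol, 691 with several, 1555 unnamed here), with 20351 symbols updated by gene ID through RefSeq GRCm38.p6. A listed gene is given by its brightest probe set. The 6 cytokine genes, the 12 other lists and their members were chosen with earlier results of these data known. All cytokine and receptor genes are named, and all neighbours in chromosome order. Of other lists up to 6 genes with the smallest p are named, as well as the 2 nearest patterns of each cytokine gene. Exceptions are marked in the text. Listed genes without a probe set of 1 symbol, such as Il2rg, Il1rl1 and Lck, were not analysed here. Alternatives were other normalizations, pseudocounts of 1 and 64, no intensity trend, no dim probe sets (the lowest 25% by mean), a threshold of 0.001, each array left out in turn, the mean of a gene's probe sets and, added after seeing the data, a floor on dim signals.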

Additional observations from a re-analysis of the deposited data

How the results depend on the processing

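No paired analysis was possible because the titles of the samples share no replicate number between the groups. The log2 changes of the 6 cytokine genes kept their direction in all 12 alternatives run for each, and lost a call in 1: Il9, with a change of 3.26 and adjusted p = 0.00123, did not pass a threshold of 0.001. Their adjusted p was at most 0.0414 (Il9), 0.0286 (Il3) and 0.023 (Il4) in any alternative and at most 0.00738 in Il5, Il13 and Csf2. With single arrays left out, the changes lay between 7.01 and 7.42 for Il4, 8.83 and 9.07 for Il5, 8.30 and 8.42 for Il13, 2.92 and 3.53 for Il9, 6.48 and 6.93 for Il3 and 8.003 and 8.25 for Csf2.

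Counts of other genes moved more, and the cause was not tested. Without the intensity trend 625 probe sets were higher and 420 lower, at a threshold of 0.001 these were 197 and 36, and with the floor on dim signals 472 and 314. With single arrays left out they ranged from 624 to 822 and from 446 to 625. Without the trend the higher calls were 2 of the JAK-STAT genes, 2 inhibitors, 3 IL-4 and IL-13 responses, 2 STAT5 targets and 1 alarmin gene. Also called higher were 5 regulators, 7 T cell markers, 2 neighbours, 1 mast cell marker and 1 DC marker. Lower calls were then 0 among receptors, JAK-STAT genes, responses, STAT5 targets, mast cell markers and DC markers. At 0.001 the higher calls were 1 JAK-STAT gene, 1 inhibitor, 4 regulators, 2 neighbours, 2 responses, 4 T cell markers and 1 mast cell marker. They were 0 among STAT5 targets, alarmins and DC markers, and lower calls were 0 in every list. With the floor the higher calls were 1 JAK-STAT gene, 3 inhibitors, 5 regulators, 2 neighbours, 3 responses, 2 STAT5 targets and 0 alarmins. Also called higher were 4 T cell markers, 1 mast cell marker and 1 DC marker. Lower calls were 0 among receptors, responses, STAT5 targets, mast cell markers and DC markers. Lower calls among receptors were 2 with a pseudocount of 1 or without dim probe sets; without dim probe sets 1 regulator and 1 eosinophil marker were lower, and without further normalization 1 neighbour and 1 eosinophil marker. With the mean of all probe sets of a gene, 4 STAT5 targets were higher and 1 lower, 9 regulators were higher and 0 mast cell markers were lower.

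With single arrays left out, lower calls ranged from 0 to 1 for receptors, regulators, responses and mast cell markers and from 1 to 2 for STAT5 targets, and were 0 for DC markers. Higher calls ranged from 2 to 3 for JAK-STAT genes and from 3 to 5 for inhibitors, and were 0 for alarmins. Of 835 alternatives over 70 other named genes, 693 kept direction and side of the threshold, 129 lost a call, 6 gained one and 7 reversed. The reversals were of dim or uncalled genes with single arrays left out, over which the changes ranged from -0.30 to 1.06 for Il5ra, -0.011 to 0.18 for Il9r, -0.17 to 0.0080 for Csf2rb2, -0.11 to 1.15 for Mcpt8, -0.22 to 0.11 for Fcer1a and -0.12 to 1.10 for Prg2. In these fits the group with 1 array is assumed to vary like the other. Dim signals limit the size of the changes of Il5, Il13, Il3 and Csf2, 4 of the 6 genes, which lay under the pseudocount on both immature arrays.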
